A study of Mus musculus with 18 samples.

Results

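The genes described here are 6 CC chemokine ligands and 2 of their receptors that direct monocytes: Ccl2, Ccl3, Ccl4, Ccl7, Ccl8, Ccl12, Ccr1 and Ccr2. They were chosen by name with earlier results of these data known, and their gene IDs were matched to mouse symbols in the count tables. The lists of other genes used further below were chosen likewise. Medians and counts of these sets, set beside all genes, describe them and are not tests of the sets. All 8 were found among the 57010 gene IDs listed. RNA sequencing counts were made for uterus and for ovary, taken at an age of 20 to 25 weeks from mice of the C57B6/J strain. Each of the 2 tissues had 3 libraries from wild-type (WT), 3 from heterozygous (ARE+/-) and 3 from homozygous (ARE-/-) animals. The series is about failed embryo implantation in mice with inflammation of the pituitary caused by interferon gamma. As background, ARE is the AU-rich element of the Ifng transcript, which shortens that transcript's life, and the allele lacks it; the labels themselves do not define the name. No treatment is given, and the stage of the estrous cycle is not given in the sources used here. The design text speaks of 3 mice for 3 genotypes, and no label ties a uterus to an ovary of the same animal. If libraries of a group shared an animal, the p-values would measure technical spread only.

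CC chemokines are small secreted proteins, named for a pair of adjacent cysteines, that bind G protein-coupled receptors on leukocytes and guide their movement along a gradient. Ccl2, Ccl7 and Ccl12 are ligands of Ccr2, the receptor that lets inflammatory monocytes leave the bone marrow and enter tissue. Ccl3 and Ccl4 are macrophage inflammatory proteins, and Ccl3 is a ligand of Ccr1. Ccl8 is close in sequence to the Ccr2 ligands and is known to be made by tissue macrophages. Monocytes and macrophages are normal residents of the uterus and of the ovary, where they take part in tissue turnover around the cycle.

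The coding stretches around the paired cysteine codons show what makes the ligands a family, and are given for 5 of them. Each stretch of 30 bases comes from GENCODE M21 transcripts on GRCm38 and is written 5′ to 3′, with the codons of the cysteine pair in capitals.
Ccl2: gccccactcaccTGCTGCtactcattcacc
Ccl7: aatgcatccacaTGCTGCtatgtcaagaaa
Ccl8: gctccagtcaccTGCTGCtttcatgtacta
Ccl12: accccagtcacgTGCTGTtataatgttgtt
Ccl4: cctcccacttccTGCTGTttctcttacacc
The pair is encoded by codons 34 and 35 in Ccl2 and Ccl4, by codons 33 and 34 in Ccl7 and Ccl12, and by codons 32 and 33 in Ccl8. Each of these coding sequences held 1 such pair. Outside the pair the letters differ: aligned coding bases matched for 70.5% between Ccl8 and Ccl12, the closest ligand pair, and for 56.8% between Ccl4 and Ccl7, the farthest. Ccr1 and Ccr2 matched for 65.3%. The longest run shared by 2 member transcripts was 23 bases, between Ccl2 and Ccl7, so none is a near-identical copy of another.

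In the annotation of the count tables (GENCODE M32) the 6 ligands lie in 2 groups on chromosome 11. Ccl2 spans 81926397 to 81928279, Ccl7 81936538 to 81938351, Ccl12 81992671 to 81994226 and Ccl8 82006011 to 82007625, all on the plus strand. Ccl3 spans 83538670 to 83540181 on the minus strand and Ccl4 83553410 to 83555509 on the plus strand. The receptors lie on chromosome 9, Ccr1 at 123762161 to 123768729 on the minus strand and Ccr2 at 123901987 to 123913594 on the plus strand. Counts of these genes cover all of their annotated exons. Ccl3 shares 266 exon bases with ENSMUSG00000120024 on the other strand, a gene with at most 130 counts in a library, and reads of the pair cannot be told apart because no strand option was set.

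Promoters were at hand for 5 of the 8 genes (Ccl3, Ccl8, Ccl12, Ccr1 and Ccr2), taken from RefSeq on GRCm38.p6. The stretches of the neighbours Ccl12 and Ccl8 are shown because, of the 5, only these held the letters TATAAA of the TATA box. The box was thus the ground for showing them, and expression was not. Each is the last 150 bases before the annotated start, 5′ to 3′ on the plus strand, with the TATA box in capitals.
Ccl12, chr11:82101695-82101844: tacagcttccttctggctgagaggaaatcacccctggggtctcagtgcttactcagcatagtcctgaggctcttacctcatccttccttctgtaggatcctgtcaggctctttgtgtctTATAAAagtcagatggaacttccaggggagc
Ccl8, chr11:82115035-82115184: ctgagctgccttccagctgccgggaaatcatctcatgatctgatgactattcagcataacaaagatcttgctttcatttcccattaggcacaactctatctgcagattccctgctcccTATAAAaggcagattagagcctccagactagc
Over the 250 bases before the start these promoters matched at 62.0% of bases, against 48.9% to 57.3% for the other pairs among the 5. The letters TATAAA were searched on both strands, and stood 31 to 26 bases before the start in Ccl12 and 32 to 27 in Ccl8. They occur in 13.6% of 32851 promoters, each searched from 250 bases before to 50 after the start. TTCNNNGAA, the gamma activated site, was in 0 of the 5 and in 8.3% of all promoters. TTTCNNTTTC, the core of the interferon stimulated response element, was in 0 of the 5 and in 3.44% of all. The NF-kB consensus was found in Ccr1 alone, 74 to 65 bases before the start, and in 8.46% of all. No overlap of a match with another motif was found in these 5 promoters.

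Depth was 33185496 to 49720354 counts per uterus library and 38132822 to 46647171 per ovary library, with the mates of a pair counted singly. Ifng, the gene whose element is altered, had 0 to 6 counts in the 6 WT libraries, 10 to 70 in the ARE+/- libraries and 38 to 130 in the ARE-/- libraries. Every ARE+/- and ARE-/- library was above the WT libraries of its tissue, while in the uterus ARE+/- replicate 3, at 2.02 CPM (counts at equal library size after TMM scaling of the 18 libraries), lay above ARE-/- replicate 3, at 1.76 CPM. Of the defining uterus genes Hoxa11 averaged 182 CPM in WT uterus and 0.76 CPM in WT ovary. The ovarian steroid enzyme gene Cyp11a1 averaged 0.679 and 4710 CPM. ARE-/- uterus replicate 1 stood apart: it held 145 CPM of the ovarian gene Inha and 2159 CPM of the globin gene Hba-a2, against at most 13.5 and 367 CPM in the other 8 uterus libraries. ARE-/- ovary replicates 2 and 3 also stood apart: 6 ovary markers summed to 2807 and 1627 CPM there, against 5986 CPM in replicate 6 and 5942 to 6830 CPM in WT, and 6 uterus markers to 1932 and 1767 CPM, against 923 CPM and 981 to 1156 CPM. ARE+/- ovary replicate 4 was shifted the same way, at 3437 CPM of ovary markers and 1559 CPM of uterus markers. ARE+/- ovary replicates 1 and 2 had 4825 and 6584 CPM of ovary markers and 804 and 961 CPM of uterus markers. In the uterus the 6 uterus markers summed to 3939 to 4400 CPM in WT and 2211 to 2694 CPM in ARE+/- libraries. They summed to 6806, 2642 and 2114 CPM in ARE-/- uterus replicates 1, 2 and 3. The part of this shift in the uterus levels of the 8 genes was not tested. Backup samples, by their titles, were replicate 1 of WT uterus and replicate 6 of ARE-/- ovary.

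**Figure D1:**
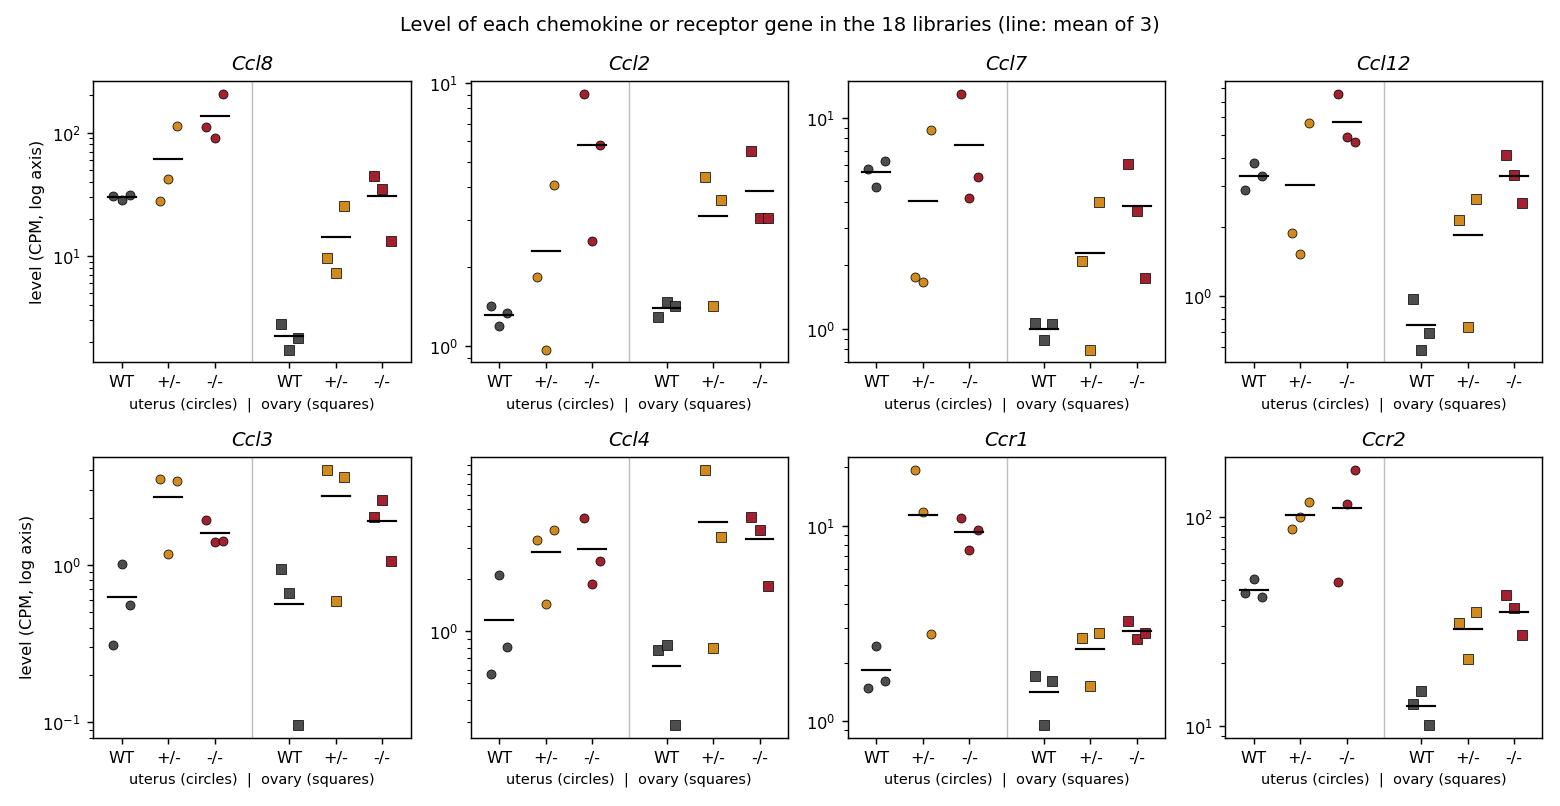
Level of each of the 8 genes in every library (CPM, log axis) by genotype, with uterus as circles and ovary as squares; the line is the mean of 3 libraries. Ccl8 and Ccr2 were lower in WT ovary than in WT uterus, and for both the ARE-/- ovary libraries lay above WT ovary.

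In WT tissue some of the genes, among them Ccl8 and Ccr2, were higher in the uterus than in the ovary. Others, among them Ccl2, were not called different. Ccl8 measured 30.7, 28.4 and 31.0 CPM in the uterus and 2.82, 1.74 and 2.16 CPM in the ovary. Ccr2 measured 43.2, 50.2 and 41.3 CPM in the uterus and 12.7, 14.7 and 10.1 CPM in the ovary. For both genes the lowest uterus library was above the highest ovary library. Ccl8 was 13.4-fold lower in the ovary, a log2 difference of -3.74 ± 0.63 (SE), and Ccr2 3.59-fold lower, -1.84 ± 0.33 (adjusted p = 0.00055 and 0.0008, edgeR's quasi-likelihood test on all 18 libraries).

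Ccl7 and Ccl12, which lie near Ccl8, had the same direction. Ccl7 measured 5.70, 4.69 and 6.26 CPM in WT uterus and 1.07, 0.881 and 1.06 CPM in WT ovary, a log2 difference of -2.47 ± 0.71 (adjusted p = 0.017, edgeR). Ccl12 measured 2.89, 3.79 and 3.32 CPM against 0.972, 0.587 and 0.695 CPM, a log2 difference of -2.15 ± 0.51 (adjusted p = 0.0056, edgeR). Neither gene overlapped between the tissues. Ccl2 was at 1.31 ± 0.116 (SD, n = 3) CPM in the uterus and 1.39 ± 0.0926 CPM in the ovary, and its log2 difference of 0.08 did not pass. Ccl3, Ccl4 and Ccr1 did not pass either, with log2 differences of -0.15, -0.87 and -0.37. Thus 4 of the 8 were called lower in WT ovary, where 25.2% of the 26682 genes tested were called in either direction. Without ovary WT replicate 1, 2 or 3 the Ccl7 call was lost, with adjusted p of 0.056, 0.067 and 0.054.

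Scaled by exon length, the genes can be put in order within a group. Ccl8 came first in all 6 groups with no library overlapping the next gene, from 4.38 CPM per kb in WT ovary to 265 CPM per kb in ARE-/- uterus. In WT uterus Ccl7, Ccr2 and Ccl12 followed at 6.93, 6.64 and 6.21 CPM per kb, each overlapping the next. Ccl4 at 1.75 and Ccl2 at 1.62 CPM per kb formed the next overlapping pair, and Ccl3 at 0.816 and Ccr1 at 0.648 the last. In WT ovary the 7 genes below Ccl8 ran from Ccr2 at 1.85 to Ccr1 at 0.502 CPM per kb, and each overlapped its neighbour. Ccr1 was last in all 3 ovary groups. In ARE+/- uterus Ccr2 stood second at 15.1 CPM per kb, apart from the 6 overlapping genes below it, of which Ccl12 led at 5.64 and Ccl2 was last at 2.82. In ARE-/- uterus Ccr2 was second at 16.3 CPM per kb and Ccl3 last at 2.07.

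In the ARE-/- ovary Ccl8, Ccl12, Ccl2 and Ccr2 rose. Ccl8 measured 2.82, 1.74 and 2.16 CPM in the WT libraries and 44.2, 35.0 and 13.2 CPM in ARE-/- replicates 2, 3 and 6. The lowest ARE-/- library was above every WT library. The rise was 13.9-fold, 3.80 ± 0.64 on the log2 scale (adjusted p = 0.012, edgeR over the 9 ovary libraries). Ccl12, a Ccr2 ligand found in mice, went from 0.972, 0.587 and 0.695 CPM to 4.11, 3.36 and 2.55 CPM. Its log2 fold change was 2.16 ± 0.46 (adjusted p = 0.018, edgeR).

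Ccl2, the main Ccr2 ligand, measured 1.29, 1.47 and 1.41 CPM in WT ovary and 5.50, 3.07 and 3.07 CPM in ARE-/- ovary. The groups did not overlap, and the log2 fold change was 1.5 ± 0.41 (adjusted p = 0.047, edgeR). Ccl7 measured 1.07, 0.881 and 1.06 CPM and 6.04, 3.62 and 1.75 CPM. Replicate 6 was the lowest of the ARE-/- libraries, and the difference of 1.94 ± 0.59 did not pass (adjusted p = 0.069, edgeR).

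Ccl3 and Ccl4 did not pass in this comparison. Ccl4 measured 0.778, 0.832 and 0.288 CPM in WT and 4.53, 3.81 and 1.82 CPM in ARE-/-, a log2 difference of 2.43 ± 0.81 (adjusted p = 0.094, edgeR). Ccl3 measured 0.948, 0.661 and 0.0959 CPM and 2.03, 2.59 and 1.06 CPM, a log2 difference of 1.75 ± 0.84 (adjusted p = 0.22, edgeR). WT replicate 3 was the lowest library for both genes, and neither gene overlapped between the groups.

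Of the receptors, Ccr2 had the smallest error. It measured 12.7, 14.7 and 10.1 CPM in WT and 42.1, 36.5 and 27.1 CPM in ARE-/- ovary, a 2.85-fold rise (log2 1.51 ± 0.23, adjusted p = 0.0051, edgeR). Ccr1 measured 1.70, 0.955 and 1.61 CPM and 3.26, 2.64 and 2.83 CPM, and its log2 difference of 1.05 ± 0.33 did not pass (adjusted p = 0.073, edgeR). The ARE-/- libraries were close together for Ccr1 and wide apart for Ccl8.

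In all, 4 of the 8 rose and none fell in the ARE-/- ovary, where 10.5% of the 24457 genes tested were called in either direction. In all 8 the ARE-/- libraries lay above the WT libraries, and the share of all genes that separated in this way is not given here. An unadjusted p under 0.05 (edgeR) was found for 7 of the 8 and for 26.6% of all genes tested. The median log2 difference was 1.84 over the 8 genes and 0.02 over all genes tested. With WT replicate 1, 2 or 3 left out only Ccr2 was called, and the adjusted p of Ccl8 was then 0.055, 0.053 and 0.054. Without ARE-/- replicate 2 the calls were Ccl8 and Ccr2, with Ccl12 at an adjusted p of 0.061 and Ccl2 at 0.16; the Ccl2 call was also lost without ARE-/- replicate 3 (0.064), ARE+/- replicate 1 (0.056) or ARE+/- replicate 4 (0.064). DESeq2 called 7, all but Ccl3, and called 3904 genes in all, where edgeR called 2558.

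In the ARE-/- uterus Ccl8 was the 1 gene of the 8 that passed the test. It measured 30.7, 28.4 and 31.0 CPM in WT and 110, 90.4 and 206 CPM in ARE-/-, a 4.55-fold rise (log2 2.18 ± 0.50, adjusted p = 0.044, edgeR over the 9 uterus libraries). Every ARE-/- library was above every WT library. Of its neighbours Ccl2 measured 1.42, 1.19 and 1.33 CPM in WT and 9.08, 2.51 and 5.79 CPM in ARE-/-, a log2 difference of 2.16 ± 0.60 that did not pass (adjusted p = 0.082, edgeR). The spread of Ccl2 among the ARE-/- libraries was 3.61-fold, against 1.19-fold in WT.

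Ccl7 and Ccl12, which were higher in WT uterus than in WT ovary, showed the smallest uterine differences. Ccl7 measured 5.70, 4.69 and 6.26 CPM in WT and 13, 4.15 and 5.25 CPM in ARE-/-, with a log2 difference of 0.45 (adjusted p = 0.76, edgeR). Only replicate 1 lay above the WT libraries, and without it the difference turned to -0.24. Ccl12 measured 2.89, 3.79 and 3.32 CPM and 7.56, 4.92 and 4.69 CPM, a log2 difference of 0.79 (adjusted p = 0.4, edgeR).

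Ccl3 measured 0.312, 1.01 and 0.554 CPM in WT uterus and 1.94, 1.41 and 1.42 CPM in ARE-/- uterus, and Ccl4 0.567, 2.09 and 0.805 CPM and 4.45, 1.87 and 2.52 CPM. Ccl3 did not overlap between the groups and Ccl4 did. Their log2 differences of 1.35 and 1.36 did not pass (adjusted p = 0.22 and 0.24, edgeR).

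Ccr1, a receptor of monocytes and neutrophils, measured 1.48, 2.42 and 1.61 CPM in WT uterus and 11, 7.54 and 9.5 CPM in ARE-/- uterus. The groups did not overlap, and the log2 difference of 2.36 ± 0.59 did not pass (adjusted p = 0.058, edgeR). Ccr2 measured 43.2, 50.2 and 41.3 CPM in WT and 48.7, 115 and 168 CPM in ARE-/-. Replicate 1 lay among the WT libraries, and the log2 difference of 1.31 ± 0.36 did not pass (adjusted p = 0.082, edgeR).

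So 1 of the 8 was called in the ARE-/- uterus, where 3.75% of the 24277 genes tested were called in either direction, and the median log2 difference was 1.36 over the 8 and 0.04 over all genes tested. The Ccl8 call was lost without WT replicate 1, 2 or 3 (adjusted p = 0.19, 0.084 and 0.19), ARE+/- replicate 2 (0.069), or ARE-/- replicate 1 or 3 (0.085 and 0.12), and with every detected gene tested (0.097), while its log2 difference stayed between 1.73 and 2.30. Without ARE-/- replicate 1, the library that stood apart, Ccr2 was called instead (log2 1.65, adjusted p = 0.0027); Ccr1 was called beside Ccl8 without ARE+/- replicate 3 (0.0088) or with the 6 libraries of the 2 genotypes alone (0.024), and Ccl2 without ARE-/- replicate 2 (0.04). DESeq2 called 4, Ccl8, Ccl2, Ccr1 and Ccr2, and called 2276 genes in all, where edgeR called 911.

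**Figure D2:**
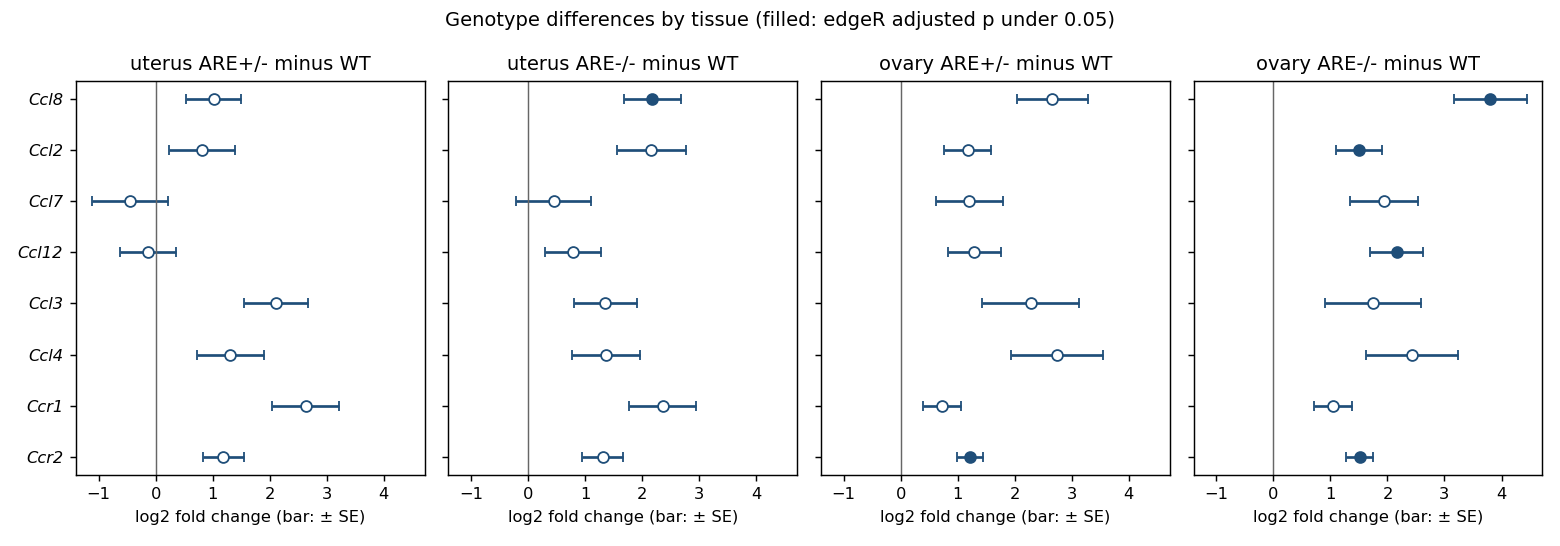
Log2 fold change against WT of each gene in the uterus and the ovary, with its standard error; filled points passed an adjusted p of 0.05 in edgeR and open points did not. Ccl8 was called in the ARE-/- animals of both tissues, and Ccr2 in both comparisons of the ovary.

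The ARE+/- animals were compared with the same WT libraries, so their values stand beside those of the ARE-/- animals and are not a second, separate test. In the ovary Ccr2 rose: ARE+/- replicates 1, 2 and 4 measured 31.1, 21.0 and 35.1 CPM, all above the WT libraries (log2 1.22 ± 0.23, adjusted p = 0.04, edgeR). Ccl8 measured 9.68, 7.25 and 25.5 CPM, also above every WT library, and its log2 difference of 2.66 ± 0.62 did not pass (adjusted p = 0.087, edgeR). Ccr2 was thus the 1 gene of the 8 called, where 1.71% of the 24457 genes tested were called. Replicate 2 was the lowest of the ARE+/- ovary libraries for all 8 genes.

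For the other ligands that library lay within the WT range, or for Ccl7 below it, while replicates 1 and 4 were higher. Ccl4 measured 8.44, 0.798 and 3.47 CPM, a log2 difference of 2.74 (adjusted p = 0.15, edgeR), and Ccl3 4.05, 0.594 and 3.65 CPM, a log2 difference of 2.28 (0.24). Ccl2 measured 4.37, 1.41 and 3.57 CPM, Ccl7 2.09, 0.798 and 4.01 CPM, and Ccl12 2.14, 0.737 and 2.64 CPM, with log2 differences of 1.17, 1.2 and 1.29. Ccr1 measured 2.68, 1.51 and 2.84 CPM, a log2 difference of 0.72. None of these 6 passed.

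The Ccr2 call was lost without WT replicate 1, 2 or 3 (adjusted p = 0.18, 0.083 and 0.15), ARE+/- replicate 1 or 4 (0.16 and 0.13), or ARE-/- replicate 2 or 3 (0.052 and 0.058). Ccl4 was called beside Ccr2 without ARE+/- replicate 2 (adjusted p = 0.031) and Ccl8 without ARE-/- replicate 6 (0.048), and DESeq2 called 4, Ccl3, Ccl4, Ccl8 and Ccr2. In all, DESeq2 called 1338 genes there and edgeR 417.

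In the ARE+/- uterus none of the 8 was called by edgeR, against 1.14% of the 24277 genes tested. An unadjusted p under 0.05 was found for 3 of the 8 and for 14.1% of all genes. DESeq2 called 3, Ccl3, Ccr1 and Ccr2, and called 1305 genes in all, where edgeR called 276. Ccr1 measured 19.5, 11.8 and 2.8 CPM, a log2 difference of 2.63 ± 0.59 (adjusted p = 0.072, edgeR). Replicate 3 was close to the WT libraries, and without it Ccr1 was called (log2 3.09, adjusted p = 0.0086). Ccr2 measured 87.5, 100 and 118 CPM, all above WT, with a log2 difference of 1.19 ± 0.36 (adjusted p = 0.16, edgeR). It was called with the 6 libraries of the 2 genotypes alone (0.01) or without ARE-/- replicate 1 (0.014).

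Replicate 3 had the highest level of the ARE+/- uterus for 6 genes, among them Ccl8, at 27.7, 42.1 and 112 CPM (log2 1.02, adjusted p = 0.39, edgeR). Ccl2 measured 1.83, 0.967 and 4.07 CPM, with a log2 difference of 0.81. Ccl7 measured 1.77, 1.67 and 8.72 CPM and Ccl12 1.89, 1.53 and 5.66 CPM: replicates 1 and 2 lay below every WT library and replicate 3 above, and the log2 differences were -0.45 and -0.13. Ccl3 measured 3.55, 1.18 and 3.41 CPM, all above WT (log2 2.11 ± 0.56, adjusted p = 0.12, edgeR), and Ccl4 3.33, 1.42 and 3.81 CPM (log2 1.31, adjusted p = 0.36, edgeR).

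Between ARE-/- and ARE+/- animals no gene of the 8 was called by edgeR in either tissue, and DESeq2 called 0 in both. The share of all genes called was 0% in the uterus and 0.0491% in the ovary. An unadjusted p under 0.05 was found for 2 in the uterus, Ccl2 (log2 1.35 ± 0.58) and Ccl8 (1.16 ± 0.48), and for 0 in the ovary. The ovary values of Ccl8 were 1.14 ± 0.57, of Ccl12 0.88 ± 0.44 and of Ccl3 -0.53 ± 0.79. All 8 genes overlapped between these genotypes in both tissues.

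The genotype differences were also compared between the tissues in the fit of all 18 libraries. For ARE-/- against WT edgeR called none of the 8 different between ovary and uterus, against 0.169% of the 26682 genes tested. An unadjusted p under 0.05 was found for 0 of the 8 and for 14.1% of all genes, and DESeq2 called 0 of the 8. The log2 difference of the effects, ovary minus uterus, was 1.61 ± 0.80 for Ccl8, 1.37 ± 0.69 for Ccl12, 1.49 ± 0.95 for Ccl7 and -1.31 ± 0.69 for Ccr1 (adjusted p = 0.39, 0.39, 0.51 and 0.41, edgeR). For Ccr2 (0.19 ± 0.46) and Ccl3 (0.40 ± 1.04) the standard error was larger than the difference. For ARE+/- against WT edgeR again called none, against 0.00375% of genes. An unadjusted p under 0.05 was found for 1 of the 8, Ccr1, and for 8.92% of all genes. Ccr1 was at -1.91 ± 0.69 (unadjusted p = 0.014, adjusted p = 0.45, edgeR), and DESeq2 called 0 of the 8. Ccl8 was at 1.65 ± 0.80 (adjusted p = 0.58, edgeR) in that comparison.

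**Figure D3:**
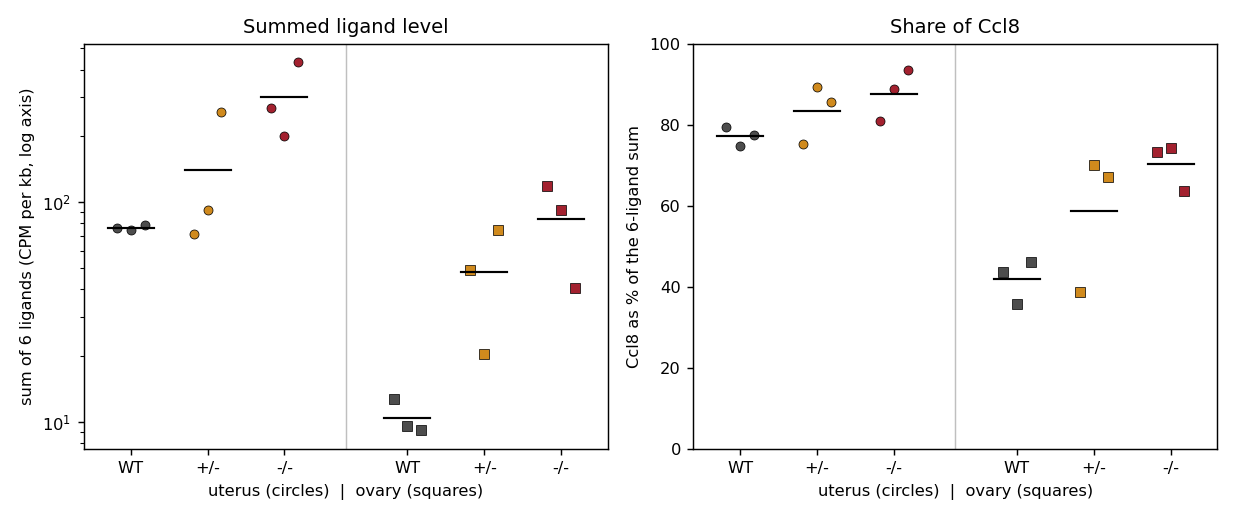
Left, the sum of the 6 ligands in each library (CPM per kb, log axis); right, the share of Ccl8 in that sum (%). Uterus libraries are circles, ovary libraries squares, and lines are means of 3. The share of Ccl8 was 74.7% or more in every uterus library and 35.7% to 46.2% in WT ovary.

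Per exon length, most of the transcript of the 6 ligands in the uterus was Ccl8. The sum was 76.1 ± 1.95 (SD, n = 3) CPM per kb in WT uterus, of which Ccl8 made up 77.2 ± 2.42%. It was 140 ± 101 CPM per kb with 83.5 ± 7.23% Ccl8 in ARE+/- uterus, and 299 ± 120 CPM per kb with 87.7 ± 6.39% Ccl8 in ARE-/- uterus. In WT ovary the sum was 10.4 ± 1.93 CPM per kb and the Ccl8 share 41.8 ± 5.47%. In ARE-/- ovary the sum was 83.6 ± 39.3 CPM per kb and the share 70.4 ± 5.93%, with libraries at 73.3%, 74.3% and 63.6%, all above the WT libraries. The ARE+/- ovary libraries did not share 1 pattern: the share was 38.7% in replicate 1, where Ccl3 and Ccl4 together reached 18.1 CPM per kb, and 70% and 67.2% in replicates 2 and 4.

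In some groups the genes tended to be high or low in the same library. In others they were split: WT uterus replicate 2 was the highest for 5 genes and the lowest for 3. ARE-/- ovary replicate 2 was the highest of its 3 for 7 genes and replicate 6 the lowest for 7, Ccr1 being the exception for replicate 6 and Ccl3 for replicate 2. Ovary and uterus markers, given above, differed between the same libraries. ARE-/- replicate 6, whose ovary marker sum of 5986 CPM was within the WT range, was above every WT library for each of the 8 genes. The share of all genes for which that library lay above WT is not given here. ARE+/- ovary replicate 4, with markers shifted like those of ARE-/- replicates 2 and 3, was the highest of its group for 5 genes. The part of tissue make-up in the levels of those shifted libraries was not tested. ARE-/- uterus replicate 1 was the highest for 6 genes, Ccl2, Ccl3, Ccl4, Ccl7, Ccl12 and Ccr1, and the lowest for Ccr2. ARE-/- uterus replicate 3 was the highest for Ccl8 and Ccr2. The WT libraries lay closer together for Ccl8, where the highest was 1.09 times the lowest in the uterus, and farther apart for Ccl3, where it was 9.88 times the lowest in the ovary.

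**Figure D4:**
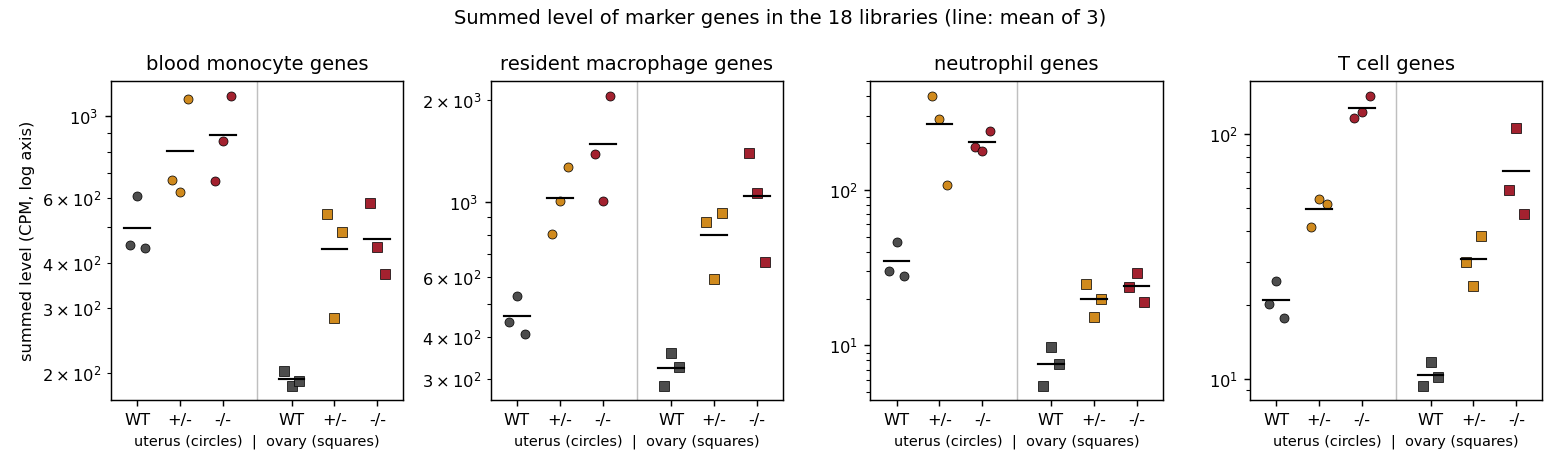
Summed level of 4 lists of cell type marker genes in each library (CPM, log axis), with uterus as circles and ovary as squares and means of 3 as lines. In each tissue every ARE+/- and ARE-/- library was above the WT libraries of that tissue for the 4 lists.

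Some of the markers of the cells that make or carry these molecules moved in the same comparisons. In whole tissue more cells of a type and more RNA per cell cannot be told apart. Of 14 blood monocyte genes tested 10 rose and none fell in the ARE-/- ovary, with a median log2 difference of 2.39 against 0.02 over all genes. Among them Ly6c2, a surface protein of inflammatory monocytes, rose by 2.84 ± 0.50 (adjusted p = 0.011, edgeR), and Fcgr4, an Fc receptor of patrolling monocytes and macrophages, by 4.36 ± 0.83 (0.021). In the ARE-/- uterus 4 of 14 rose and none fell, Ly6c2 by 2.73 ± 0.52 (0.022) and Fcgr4 by 4.29 ± 0.43 (0.0009). The others were not called there, among them Vcan at -1.54 ± 0.55, F13a1 at 0.01 ± 0.25 and Plac8 at 0.93 ± 0.47, named after their values were seen. Vcan alone of the list had a negative difference there. The summed level of the list was 185 to 203 CPM in WT ovary, 282 to 541 CPM in ARE+/- ovary and 373 to 580 CPM in ARE-/- ovary, and 439 to 609, 624 to 1113 and 669 to 1140 CPM in the uterus. In the ARE+/- uterus 1 of 14 rose, Fcgr4 (log2 3.41 ± 0.41, adjusted p = 0.0074, edgeR), and 1 fell, F13a1 (-1.34 ± 0.26, 0.046), and Plac8, which was not called and is named after its values were seen, made up 332 CPM of the mean sum of 804 CPM. The lowest sums of the ARE+/- and ARE-/- ovary were again in replicates 2 and 6. No gene of the list was at 0 in a whole group, and the part of these cells in the chemokine levels was not tested.

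Resident macrophage genes also rose in part: 8 of 14 rose and none fell in the ARE-/- uterus (median log2 1.75), and 7 rose and 1 fell in the ARE-/- ovary (median 1.12). In the ARE+/- animals 1 of 14 rose in the uterus and 4 in the ovary, and none fell. The complement gene C1qb, made by macrophages, rose by 2.20 ± 0.30 in the uterus (adjusted p = 0.005, edgeR) and by 2.23 ± 0.32 in the ovary (0.0059). Adgre1, which encodes the macrophage protein F4/80, rose by 2.02 ± 0.46 (0.042) and 2.17 ± 0.30 (0.0044). The gene that fell in the ovary was Cd209f, a lectin (log2 -2.75 ± 0.62, adjusted p = 0.022, edgeR). Mertk and Lyve1, named after their values were seen, were not called in the ARE-/- animals of either tissue. They were at -0.13 ± 0.24 and 0.25 ± 0.17 in the uterus and at 0.15 ± 0.18 and 0.40 ± 0.19 in the ovary. The list summed to 408 to 526 CPM in WT uterus and 1008 to 2061 CPM in ARE-/- uterus, and to 287 to 357 and 666 to 1395 CPM in the ovary.

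Neutrophil genes stand beside Ccr1, which neutrophils also carry. They summed to 28.1 to 46.6 CPM in WT uterus, 108 to 405 CPM in ARE+/- uterus and 178 to 240 CPM in ARE-/- uterus, and to at most 29.3 CPM in any ovary library. Of 9 tested 1 rose in the ARE+/- uterus, Csf3r, the receptor of the granulocyte growth factor (log2 2.98 ± 0.41, adjusted p = 0.01, edgeR), and 2 in the ARE-/- uterus, Csf3r (2.81 ± 0.40, 0.0063) and S100a9 (6.07 ± 1.28, 0.036). The list was mixed in the ARE+/- uterus: the granule gene Mpo was at -2.27 ± 1.01 and Camp at 0.02 ± 1.10, neither called and both named after their values were seen. In the ovary 1 of 6 tested, Csf3r, rose in each of the ARE+/- and ARE-/- comparisons with WT. In the ARE+/- uterus replicate 3, the lowest for Ccr1 at 2.8 CPM, also had the lowest neutrophil sum, 108 CPM. The part of neutrophils in the Ccr1 level was not tested.

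Fat and blood genes were measured as well, since a dissected organ can carry both. Adipocyte genes summed to 75.1 to 93.4 CPM in WT and to 17894, 1958 and 1121 CPM in ARE-/- uterus, and erythroid genes to 101 to 232 CPM and to 7474, 1377 and 882 CPM. All 9 adipocyte genes and 5 of 6 erythroid genes tested rose there. ARE-/- replicate 1, the highest for both lists, had 110 CPM of Ccl8, between the other ARE-/- libraries, and the highest level of its group for 6 of the 8 genes. In the ovary adipocyte genes summed to 149 to 228 CPM in WT, to 1613, 265 and 846 CPM in ARE+/- replicates 1, 2 and 4, and to 1410, 2130 and 84.2 CPM in ARE-/- replicates 2, 3 and 6. ARE+/- replicate 2 and ARE-/- replicate 6, the lowest there for most of the 8 genes, were also the lowest for fat genes. The median log2 difference of the 9 fat genes from WT in the ovary was 2.10 in ARE+/- and 2.68 in ARE-/- animals, and the lowest adjusted p among them was 0.34 and 0.17 (edgeR, the latter for Cfd and Cidec alike and the former for Cfd). The part of fat and blood in the chemokine levels was not tested. T cell genes rose for 10 of 10 in the ARE-/- animals of each tissue, and natural killer genes for 7 of 9 in the ovary and 2 of 9 in the uterus, where 1 fell.

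Other CC ligands moved beside the 6 described. Of 12 tested 4 rose in the ARE-/- animals of each tissue and none fell, with a median log2 difference of 1.57 in the uterus and 0.86 in the ovary. Ccl5, made by T cells and a ligand of Ccr1, rose from 6.74 ± 1.74 to 38.3 ± 10.6 CPM in the uterus (log2 2.52 ± 0.34, adjusted p = 0.0046, edgeR) and from 0.906 ± 0.172 to 18.5 ± 6.33 CPM in the ovary (4.37 ± 0.38, 0.0002). Ccl22, a ligand of Ccr4, and Ccl6 also rose in both tissues. Ccl9 was called in the uterus (1.76 ± 0.35, adjusted p = 0.025, edgeR) and Ccl19, a ligand of Ccr7, in the ovary (3.37 ± 0.56, 0.0066).

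Of 12 other CC and atypical receptors tested 4 rose and none fell in the ARE-/- animals of each tissue. Ccr7, the receptor that guides cells to lymph nodes, rose in both tissues, by 2.21 ± 0.45 (adjusted p = 0.028, edgeR) and 2.60 ± 0.49 (0.011). Ackr2, a scavenger receptor that takes up inflammatory CC chemokines, rose in the ovary by 1.82 ± 0.23 (adjusted p = 0.0021, edgeR). Ccrl2 rose in the uterus (1.74 ± 0.29, adjusted p = 0.011, edgeR), and Ccr3, an eosinophil receptor, in the ovary (4.83 ± 0.75, 0.0047).

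Growth factors and receptors of the monocyte lineage had 2 of 7 called in the ARE-/- uterus and 4 of 7 in the ARE-/- ovary, all higher. Csf1r, the receptor that monocytes and macrophages need to survive, rose by 1.57 ± 0.31 in the uterus (adjusted p = 0.025, edgeR) and by 1.62 ± 0.18 in the ovary (0.0011). Cx3cr1, the fractalkine receptor, rose in the ovary from 11.4 ± 1.28 to 35.3 ± 4.2 CPM (1.65 ± 0.13, adjusted p = 8.9e-05, edgeR). Of 11 inflammatory cytokine and NF-kB response genes 5 rose in the uterus and 4 in the ovary; Tnf was among them in both, at 2.59 ± 0.46 and 2.59 ± 0.59. Interferon gamma response genes rose for 11 of 12 in the uterus and 12 of 12 in the ovary, Cxcl9 by 5.79 ± 0.38 and 6.72 ± 0.36. Immediate early genes, which respond within minutes to handling, had 1 of 12 called in the ARE-/- uterus, Atf3 (log2 1.60 ± 0.35, adjusted p = 0.036, edgeR). Atf3 was also called in the ARE+/- uterus (1.80 ± 0.35, 0.047), and none of the 12 was called in the ovary against WT. In WT ovary 4 of the 12 were higher than in WT uterus, where 25.2% of all genes were called in either direction. The part of handling in these comparisons was not tested.

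The genes whose pattern over the 18 libraries was nearest to each member were found by the root mean square distance of log2 CPM after each tissue's mean was subtracted, among 19591 genes. Ccr2 had the nearest neighbours, Myo1f at 0.17, Nckap1l at 0.18 and Inpp5d at 0.20. Ccl3 and Ccl4 were nearest to each other at 0.45. Ccl7 and Ccl12 were at 0.39 from each other, with Lrg1 at 0.37 from Ccl7 and 0.45 from Ccl12. Ccl8 was nearest to Cd79b at 0.48, Ms4a4b at 0.49 and Ccl5 at 0.51, and Ccl2 to Cfp at 0.46. Ccr1 was nearest to Lilr4b at 0.47, with Csf3r at 0.51. These distances describe libraries that share genotype and are not a test.

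The authors' deposited tables of a likelihood-ratio test over the genotypes, made per tissue, give an adjusted p for each of the genes. In the authors' deposited table of the ovary it was 2.87e-07 for Ccr2, 1.01e-05 for Ccl8, 0.000835 for Ccl12, 0.00565 for Ccl4, 0.0213 for Ccl2 and 0.0318 for Ccl7. Ccr1 at 0.0794 and Ccl3 at 0.0799 were above 0.05 in that deposited table. In the authors' deposited table of the uterus it was 0.00077 for Ccr1, 0.00162 for Ccl8, 0.0143 for Ccl2, 0.0242 for Ccl3 and 0.033 for Ccr2. Ccl4 at 0.286, Ccl12 at 0.461 and Ccl7 at 0.761 were above 0.05 there. The authors' deposited tables put Ccr2 and Ccl8 of the ovary in cluster 1 of their clusters, and give no cluster for the other members. The deposited test asks about any difference among the 3 genotypes, and the tests above about pairs of genotypes.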

How the data were processed

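Total RNA of 18 libraries was sequenced with paired ends, per the labels' protocols. The deposited tables hold whole-number counts per gene, made by the authors with featureCounts 2.0.4 on GENCODE M32, per the file headers. The headers show that reads mapping to several places or genes were counted for each, that mates were counted singly and that no strand option was set; 70.9% of uterus and 72.1% of ovary counts from 1 to 20 were even. The submitters' processing notes name STAR and the build mm10, although GENCODE M32 annotates a later build, so positions are printed as the files give them. The authors' deposited likelihood-ratio tables (DESeq2, per the submitters' processing notes) hold adjusted p-values and cluster numbers, which were only quoted.

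The tests were edgeR's (version 4.0.16, R 4.3.3), after filterByExpr and TMM scaling with factors of 0.815 to 1.07 over the 18 libraries: robust quasi-likelihood F-tests with 1 mean per genotype over the 9 libraries of a tissue, and over all 18 for comparisons between tissues. Benjamini-Hochberg adjustment covered all genes tested, with a threshold of 0.05. All 8 members passed the filter in each fit. A standard error was had by dividing a log2 fold change by the root of its F value. The methods were tested on simulated data. The alternatives were DESeq2 1.42.0, its size factors, no filter, counts divided by 2 and rounded up, only the groups compared, the replicate number as a block, and leaving out each library in turn. Same-numbered uterus libraries of ARE+/- and ARE-/- deviated together (correlations of 0.101, 0.111 and 0.343, from the data and not the labels); the other comparisons did not show this for all of their pairs.

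The members and the gene lists (16 lists, 163 genes, all found) were chosen with earlier results of these data known. Of other lists the text names at most 6 called genes of at least 1 CPM per comparison, by size of change. A symbol was given for 52029 of 57010 gene IDs. Where the text prints a position of a promoter, it comes from RefSeq on GRCm38.p6. All columns of per-sample values were used. Column letters H and K were read as ARE+/- and ARE-/-: the replicate numbers of the ovary columns match the titles only in this way, and the same letters were taken to mean the same in the uterus table. Some items are not reported here.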

Additional observations from a re-analysis of the deposited data

How the results depend on the processing

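Over 9 comparisons, 8 genes and 15 or 24 alternatives each, 1204 of 1296 alternative results kept direction and side of the threshold; 33 lost a call, 29 gained one and 30 changed sign, all of these 30 in differences that had not been called. The calls of Ccr2 in ARE-/- ovary and of Ccl8, Ccl12 and Ccr2 in WT ovary against uterus were kept under every alternative run. Members called, ARE-/- against WT in the uterus (1): 0 without the filter, 4 with DESeq2, 2 with only the groups compared, 0 to 2 with a library left out. ARE+/- against WT in the uterus (0): 3 with DESeq2, 1 with only the groups compared, 0 to 1 with a library left out. In the ovary the ARE-/- count (4) was 7 with DESeq2 and 1 to 6 with a library left out, and the ARE+/- count (1) was 4 with DESeq2 and 0 to 2. The WT tissue count (4) was 3 to 4. Over all genes DESeq2 called more than edgeR in every comparison.

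No label says that a replicate number marks a shared animal or day. Deviations of same-numbered libraries correlated at -0.16 to 0.014 over 5 pairs in the ovary, 0 of them over 0.1, and at 0.023 to 0.132 over 7 pairs across tissues, 1 over 0.1. In the uterus 5 of 9 pairs, of -0.035 to 0.343, were over 0.1, among them all 3 between ARE+/- and ARE-/-; with the replicate block no gene of the 8 was called in that comparison either. Ovary ARE+/- replicate 4 and ARE-/- replicate 6 have no same-numbered partner, so the block takes them out of the ovary contrasts. Across tissues it takes out libraries with no same-numbered library of their genotype in the other tissue. Changes under the block therefore also reflect lost libraries. With the replicate block the ovary ARE-/- against ARE+/- difference turned to 1.85 for Ccl3 and 1.61 for Ccl4, and the effects in ovary minus uterus to 0.02 for Ccl2 (ARE-/-) and -0.02 for Ccr2 (ARE+/-). With the block, Ccl2 in ARE-/- ovary (adjusted p = 0.092, edgeR) and Ccr2 in ARE+/- ovary (0.23) lost their calls and Ccl7 in ARE-/- ovary (0.028) and Ccl8 in ARE+/- ovary (0.043) gained one.

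With a library left out, log2 differences that changed sign ranged as follows. In the uterus they were -0.24 to 0.75 for Ccl7 (ARE-/- against WT), -0.96 to 0.18 for Ccl12 (ARE+/- against WT), and, between ARE-/- and ARE+/-, -0.38 to 0.32 for Ccl4, -0.74 to 0.36 for Ccr1 and -0.32 to 0.47 for Ccr2. In the ovary, between ARE-/- and ARE+/-, they were -0.03 to 0.67 for Ccl2 and -0.81 to 0.70 for Ccl4. In WT ovary against uterus Ccl3 ran from -0.73 to 0.39. For effects in ovary minus uterus they were -0.13 to 0.98 for Ccl3 and -0.15 to 0.63 for Ccr2 (ARE-/-), and -0.00029 to 1.06 for Ccl2, -0.36 to 0.75 for Ccl3 and -0.13 to 0.22 for Ccr2 (ARE+/-). Each omission leaves fewer libraries and can change the set of genes under test, because the filter is run again. The cause of the changes was not tested. Standard errors against WT were largest for Ccl3 and Ccl4 in the ovary and for Ccl7 in the uterus.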
